A study of Caenorhabditis elegans with 2 samples.

Results

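The 401 peaks described here are the places on the X chromosome where chromatin precipitated with tagged MLS-2 was enriched in *Caenorhabditis elegans* embryos and where no gene for a small structural or regulatory RNA lay close by. MLS-2 is a homeodomain transcription factor of the HMX family, and in worms it is known for its part in the postembryonic mesoderm and in the development of certain neurons and glia. Homeodomain proteins bind short A- and T-rich sites, and vertebrate HMX proteins are known to bind CAATTAA and CAAGTG. The worm X chromosome is known for dosage compensation: in hermaphrodites a condensin-containing complex is recruited to sites on both X chromosomes that carry a motif called MEX, whose core is GCGCAGGG, and then spreads along the chromosome, and X is poor in germline genes and operons.

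The peaks came from the ce11 list of optimal peaks, which the deposited file descriptions say was derived from both replicate lists and a pooled list by the irreproducible discovery rate (IDR), a measure of rank agreement. It held 1925 peaks, of which 486 were on X. A peak was a member when its summit, the base of highest signal, was more than 200 bp from every tRNA, snoRNA, snRNA and miRNA gene in the Ensembl annotation of WBcel235, the same assembly as ce11. The rule left out 85 X peaks, 82 near a tRNA gene, 2 near a miRNA gene and 1 near a snoRNA gene. The 1235 autosomal peaks that passed the same rule served as the comparison. Values near the border of the rule were a summit at 185 bp from mir-73 and one at 175 bp from a tRNA gene, both left out, and summits at 247 bp and 296 bp from tRNA genes, both kept.

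There was 1 group with 2 biological replicates and no comparison of conditions. All worms belonged to strain OP645, with the allele unc-119(tm4063) III and the transgene wgIs645, from which MLS-2 is expressed with GFP-FLAG at its C-terminal end; they were mixed-stage embryos of pooled sex, taken as whole organisms 2 h after eggs were bleached to synchronize them, and an anti-GFP antibody was used. Embryos of all cell types and of both sexes were pooled, so a peak cannot be assigned to a tissue. The deposited lists carry no read totals, so the depth is unknown, and the labels' control experiment was not analysed here. The signal value given for each peak is the authors' own; its scaling is not stated, and it was used only to describe and rank peaks within a list. The optimal list held exactly the strongest 1925 regions of the pooled list, down to a signal of 212. Intervals below are exact (Clopper-Pearson) 95% binomial intervals, they cover counting error only, and p-values over peaks describe these lists and not further animals.

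Sequences with a close match to the MEX motif, searched for after the data had been seen, are shown first. The 5 members below hold a match of at least 11 of the 12 letters of the MEX motif within 50 bp of the summit. Each is named by the protein-coding gene with the nearest 5′ end, capitals mark every stretch with such a match in either orientation, and the letters are those of the RefSeq copy of WBcel235 (ce11).
W02H3.3 (chrX:11094159-11094259, + strand): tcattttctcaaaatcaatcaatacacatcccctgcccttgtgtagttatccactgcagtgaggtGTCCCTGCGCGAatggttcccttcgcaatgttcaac
F20B6.9 (chrX:4209238-4209338, + strand): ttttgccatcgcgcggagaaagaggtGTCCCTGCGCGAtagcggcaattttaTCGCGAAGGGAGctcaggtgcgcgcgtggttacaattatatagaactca
gtr-1 (chrX:806645-806745, + strand): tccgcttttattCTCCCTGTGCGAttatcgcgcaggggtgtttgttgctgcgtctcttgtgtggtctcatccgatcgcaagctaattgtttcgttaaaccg
nspc-17 (chrX:14525871-14525971, + strand): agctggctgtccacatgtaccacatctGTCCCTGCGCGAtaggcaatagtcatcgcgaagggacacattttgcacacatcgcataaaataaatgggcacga
xol-1 (chrX:8036388-8036488, + strand): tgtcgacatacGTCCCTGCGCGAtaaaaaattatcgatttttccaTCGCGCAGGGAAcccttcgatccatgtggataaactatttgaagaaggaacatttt
The last of these, on the upstream side of xol-1, holds a match in each orientation, and it is also the member whose summit was 247 bp from a tRNA gene. The sequence at F20B6.9 holds 2 matches as well, and at gtr-1 the core GCGCAGGG lies beside the marked match and outside it.

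A second octamer, GAGACGCA, known from promoters of broadly expressed worm genes, was found at 26 members. The next 3 sequences show it at the promoters of nhr-1, a nuclear hormone receptor gene, sec-3, a gene of the exocyst complex that tethers secretory vesicles, and hsp-3, a gene for a chaperone of the endoplasmic reticulum, with the octamer or its reverse complement TGCGTCTC in capitals.
nhr-1 (chrX:17513651-17513751, + strand): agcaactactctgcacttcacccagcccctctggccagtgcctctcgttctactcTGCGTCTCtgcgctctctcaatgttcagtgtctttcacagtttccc
sec-3 (chrX:3099962-3100062, + strand): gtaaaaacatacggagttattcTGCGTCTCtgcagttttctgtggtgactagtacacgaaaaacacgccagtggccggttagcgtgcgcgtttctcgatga
hsp-3 (chrX:6092150-6092250, + strand): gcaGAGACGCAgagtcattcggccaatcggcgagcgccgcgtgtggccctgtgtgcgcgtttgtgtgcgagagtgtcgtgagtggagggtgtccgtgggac
The letters expected of an HMX protein, CAATTAA, were found at 7 members. Shown here, with CAATTAA or TTAATTG in capitals, are the strongest of the 7, at the promoter of the Mediator subunit gene dpy-22, and one in the neighbourhood of mls-2 itself, nearest to C39E6.2.
dpy-22 (chrX:9822865-9822965, + strand): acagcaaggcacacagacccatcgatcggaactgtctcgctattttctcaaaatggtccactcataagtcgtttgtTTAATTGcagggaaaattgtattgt
C39E6.2 (chrX:4753073-4753173, + strand): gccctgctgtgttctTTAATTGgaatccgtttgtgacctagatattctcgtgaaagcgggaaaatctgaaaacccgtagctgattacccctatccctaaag

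The rule on small RNA genes used the annotation, and the sequences were therefore also searched for the B box, the internal promoter element of tRNA genes, as GGTTC followed by any base, A, any 2 bases and CC, in either orientation up to 100 bp from the summit; this search was added after the sequences had been read. It was found at 4 of 401 members (0.998%, interval 0.272 to 2.53%), at 5 of 1235 autosomal peaks (0.405%; Fisher's exact test, two-sided, p = 0.24), in 1 of 401 flanking windows, in 0.490% of windows of the same length along X, and at 63 of the 82 X peaks left out for a tRNA gene (76.8%). No member lay within 200 bp of a tRNA pseudogene in the RefSeq annotation. At 3 of the 4 members the B box belonged to a copy of one sequence: a run of 33 bases was identical in all 3, and it occurred 3 times on X and at 0 places on the autosomes. These members follow, with the B box in capitals.
T13C5.6 (chrX:6207773-6207973, + strand): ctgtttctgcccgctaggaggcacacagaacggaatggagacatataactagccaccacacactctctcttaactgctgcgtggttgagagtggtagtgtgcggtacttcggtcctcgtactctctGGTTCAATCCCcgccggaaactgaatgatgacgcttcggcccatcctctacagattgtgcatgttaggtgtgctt
ZK816.3 (chrX:3347972-3348172, + strand): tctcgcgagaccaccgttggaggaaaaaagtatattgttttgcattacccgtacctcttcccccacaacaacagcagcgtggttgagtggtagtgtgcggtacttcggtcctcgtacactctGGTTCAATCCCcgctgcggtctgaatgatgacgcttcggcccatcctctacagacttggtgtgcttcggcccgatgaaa
idpp-9 (chrX:3914352-3914552, + strand): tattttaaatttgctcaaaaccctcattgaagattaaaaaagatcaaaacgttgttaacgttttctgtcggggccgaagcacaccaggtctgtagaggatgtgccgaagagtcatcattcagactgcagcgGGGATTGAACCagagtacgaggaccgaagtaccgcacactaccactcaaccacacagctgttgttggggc
Their signals were 1163 at T13C5.6, the second strongest member, 461 at ZK816.3 and 282 at idpp-9, and all 3 were found in both replicates. The fourth member with a B box was at F59C12.4, with a signal of 411.

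Peaks away from small RNA genes were denser on X than on any autosome. There were 22.6 summits per Mb on X, against 20.8 on I, 19.7 on III, 16.2 on II, 11.9 on IV and 9.22 on V, while X had the lowest density of protein-coding genes, 154 per Mb against 188 to 239. X held 24.5% of the 1636 peaks (interval 22.4 to 26.7%) and 17.7% of the nuclear bases. The X share was highest in the strongest regions: among pooled regions away from small RNA genes, the X share was 19.3% for signal ranks 1926 to 3850, 16.5% for ranks 3851 to 5000 and between 14.4% and 14.6% for lower ranks. Each replicate's own list showed the same order at the top, with X shares of 23.8% and 23.0% among the strongest 1925 regions of replicates 1 and 2 and 18.7% in the next rank range in both. Replicate 1 ended at 14.9% and replicate 2 at 16.6%. These ranks were examined after the data had been seen, and the lists are described by their depositors as holding background regions as well as peaks.

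**Figure D1:**
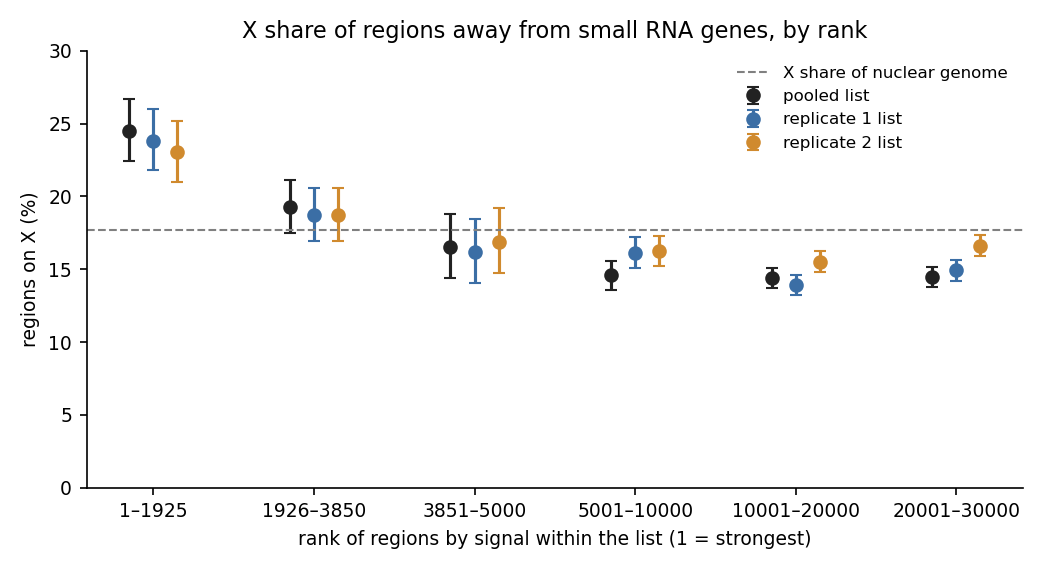
Percent of regions away from small RNA genes that lay on X, by signal rank, for the pooled list and each replicate's list, with exact 95% binomial intervals; the dashed line is the X share of nuclear bases, 17.7%. The pooled share goes from 24.5% in the strongest 1925 regions to 14.4% in the weakest.

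Along the chromosome the 401 summits were spread without an empty megabase. In bins of 1 Mb the count ran from 17 to 36, with the most at 4 to 5 Mb (36), where mls-2 lies, followed by 2 to 3 Mb (33) and by 5 to 6 Mb and 14 to 15 Mb (30 each). The count of 36 includes 5 summits at mls-2 (chrX:4759745-4763261), a gene that the strain also carries on a transgene. The lowest full bins were 0 to 1 Mb and 6 to 7 Mb with 17 each, and the final 0.719 Mb held 9. Of 3 stretches of equal length, the leftmost held 157 summits (39.2%, interval 34.3 to 44.1%) and 31.9% of the gene starts, the middle 125 (31.2%) with 35.7% of the gene starts, and the rightmost 119 (29.7%) with 32.4%. Over the 17 full bins, the number of summits had a Spearman correlation of -0.08 and a Pearson correlation of -0.06 with the number of gene starts, given as a description because neighbouring bins share chromosome features. The longest interval between neighbouring members, with the chromosome ends not counted, ran for 295648 bp from chrX:16150358 to chrX:16446006. The median distance from a member to the next was 9232 bp, against 11802 bp for autosomal peaks.

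**Figure D2:**
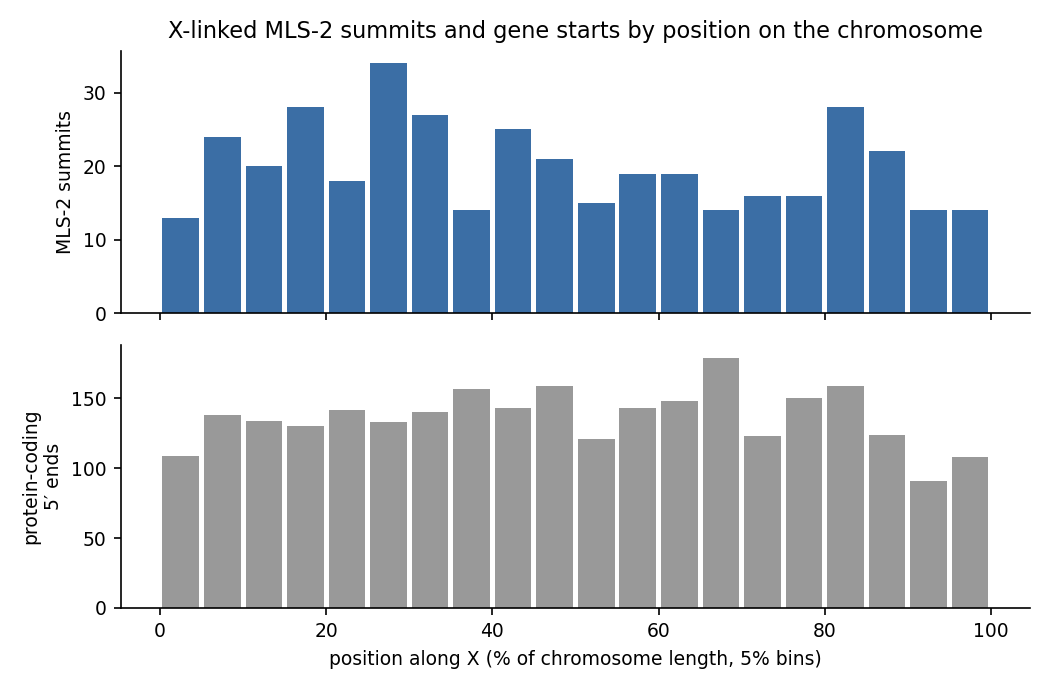
Number of member summits (top) and of protein-coding 5′ ends (bottom) in 20 equal bins of 5% of the length of X. Summit counts run from 13 to 34 per bin, and the highest is at 25 to 30% of the length.

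Summits in close groups made up a similar share of the X and the autosomal peaks. A summit lay within 1000 bp of another member for 52 of 401 (13.0%), against 157 of 1235 autosomal peaks (12.7%; Fisher's exact test, two-sided, adjusted p = 0.93). The 52 formed 25 runs. They included 19 pairs of neighbours 199 to 212 bp apart, all with overlapping intervals, and counting each such pair once left 382 members. The largest run was the 4 summits at mls-2, 3 in the gene's introns and 1 in its promoter, and it included 1 of these pairs. When summits up to 5000 bp apart were joined, a grouping added after the data had been seen, 153 members fell into 64 runs. The longest held 7 summits at chrX:5810329-5821414, between F13D11.3, which encodes a protein tyrosine phosphatase, and hbl-1, the Hunchback-like regulator of developmental timing. Signals in this run were between 214 and 853, 6 of the 7 summits were intergenic, and 5 were found in both replicates.

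The mls-2 locus itself carried the third strongest member. The gene lies on the minus strand at chrX:4758804-4761640. Its intron summit, 1726 bp inside the gene, had a pooled signal of 1035, with 596 in replicate 1 (rank 55) and 437 in replicate 2 (rank 21). Signals of different lists are not on 1 scale, since replicate 1's values were the higher, with a median log2 ratio of 1.00 over the members. The other summits of the gene were an intron summit with a signal of 329 (ranks 2439 and 248), one with 399 (324 and 1440) and a promoter summit 14 bp upstream of the 5′ end with 343 (780 and 484). Of these 4, the intron summit of 329 was outside the strongest 1925 regions of replicate 1, and the others were found in both replicates. A further summit 1387 bp upstream had a signal of 334 and ranks of 529 and 1878. The strain carries mls-2 on a transgene as well as at its native place, and the part of the transgene's DNA in these values was not tested. Leaving out every summit within 20 kb of mls-2 gave 41 recomputed values, some of which carry no test. None of the tested values changed its side of the threshold, although 2 differences that did not pass it changed sign.

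Promoters held about as large a share of the X peaks as of the autosomal ones. A promoter window, 1000 bp before and 100 bp after the start of any protein-coding transcript, held 203 of 401 members (50.6%, interval 45.6 to 55.6%) against 632 of 1235 autosomal peaks (51.2%, 48.3 to 54.0%; Fisher's exact test, two-sided, adjusted p = 0.93). Introns held 61 members (15.2%, 11.8 to 19.1%) against 243 autosomal peaks (19.7%; Fisher's exact test, adjusted p = 0.093), and exons 4 (0.998%) against 31 (2.51%; Fisher's exact test, adjusted p = 0.12). Intergenic summits numbered 133 (33.2%, 28.6 to 38.0%) against 329 (26.6%, 24.2 to 29.2%), a difference that passed the threshold (odds ratio 1.37, Fisher's exact test, adjusted p = 0.034; the 8 comparisons of shares were adjusted together by the Benjamini-Hochberg method). The intergenic call did not hold when replicate 2 was left out or when only peaks above the median signal were kept, with adjusted p = 0.16 in both (Fisher's exact test). Intergenic bases make up 32.3% of X and 23.5% of the autosomes, so relative to the bases available the intergenic ratio was 1.03 on X and 1.13 on the autosomes. For promoters that ratio was 2.51 on X and 2.04 on the autosomes, for introns 0.573 and 0.700, and for exons 0.0475 and 0.108.

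X summits differed from autosomal ones in the arrangement of the promoters they lay in. A summit lying in the promoter windows of genes pointing both ways occurred for 11 members (2.74%, interval 1.38 to 4.86%) and for 217 autosomal peaks (17.6%, 15.5 to 19.8%), an odds ratio of 0.132 (Fisher's exact test, two-sided, adjusted p = 4.2e-16). The share was between 15.3% and 20.2% on each of the 5 autosomes. Bases in such shared windows make up 0.645% of X and 2.34% of the autosomes, a ratio of summits to bases of 4.25 on X and 7.50 on the autosomes, and X had 78 gene pairs with 5′ ends pointing away from each other within 1000 bp, against 1619 on the autosomes. Of these pairs, 10 on X (12.8%, interval 6.32 to 22.3%) and 180 on the autosomes (11.1%, 9.63 to 12.8%) had a summit between their starts, a difference that did not pass the threshold (Fisher's exact test, two-sided, p = 0.58), a comparison added after the data had been seen. The strongest of the 11 members was 111 bp upstream of hst-6, a gene that lies within rga-8 on the other strand, and also in the promoter window of a transcript of rga-8, with a signal of 404 and ranks of 541 and 402 in the replicates; the next was between ile-2 and trap-2, both genes of the secretory pathway, with a signal of 366 and ranks of 575 and 557. Summits in the promoter of genes in a single direction made up 47.9% of members and 33.6% of autosomal peaks.

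**Figure D3:**
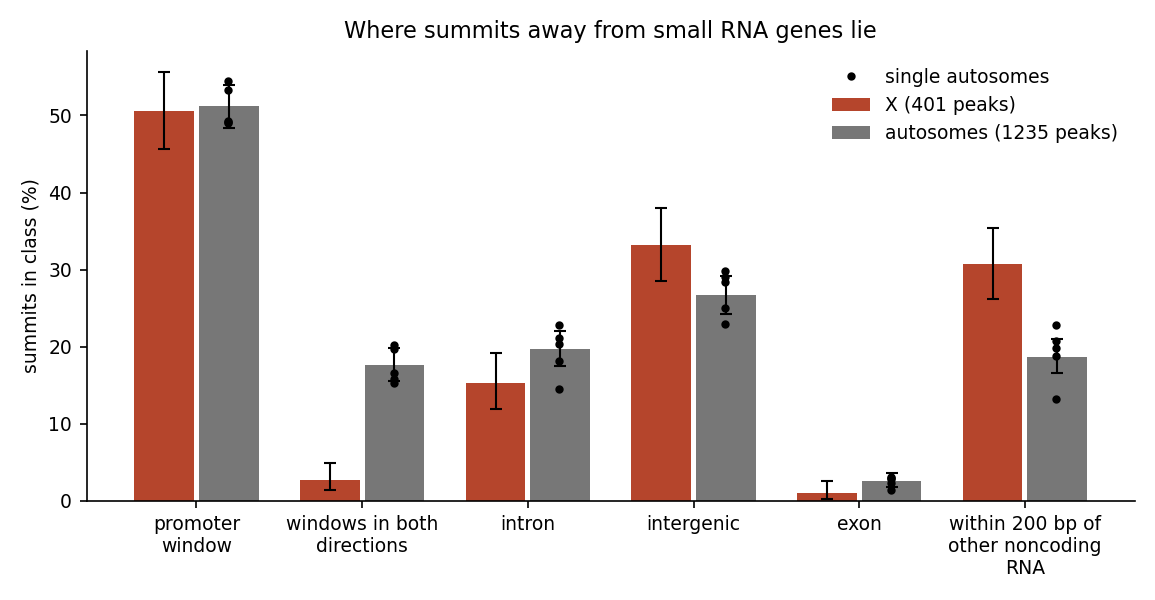
Percent of peaks in each annotation class for X (401 peaks) and the autosomes (1235 peaks), with exact 95% binomial intervals; black points are single autosomes. Promoter shares overlap (50.6% and 51.2%), while 2.74% of X summits and 17.6% of autosomal summits lay in promoters facing both directions.

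X summits were also more often near a noncoding RNA gene of another kind (annotated ncRNA, lincRNA or antisense RNA). This was so within 200 bp for 123 members (30.7%, interval 26.2 to 35.4%) and 231 autosomal peaks (18.7%, 16.6 to 21.0%), an odds ratio of 1.92 (Fisher's exact test, two-sided, adjusted p = 3.65e-06). On single autosomes the share was between 13.2% and 22.8%. X has 2565 such genes and the 5 autosomes together 5493, and their surroundings cover 6.63% of X bases and 3.35% of autosomal bases, so the ratio of summits to bases was 4.63 on X and 5.59 on the autosomes. The higher X share was found in each class: 26.6% against 14.2% in promoters, 32.8% against 20.6% in introns and 36.8% against 27.1% between genes.

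Distances to genes were similar on both. The median distance from a summit to the nearest protein-coding 5′ end was 779 bp on X and 744 bp on the autosomes, and 315 members (78.6%) lay on its upstream side. Within 250 bp lay 93 members (23.2%) against 29.1% of autosomal peaks, and beyond 5000 bp 27 (6.73%) against 4.70%. The genes hosting intron summits were long, with a median of 9163 bp against 2548 bp for all X genes. The same held on the autosomes, with 12401 bp against 1964 bp. Long genes offer more intron bases, and the part of this in the difference was not tested. Peaks had a median signal of 281 (interquartile range 240 to 372) on X and 278 on the autosomes. By class the median X signal was 298 in promoters, 279 between genes and 258 in introns.

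Of the 20 strongest X peaks, 12 lay in promoter windows, 7 between genes and 1 in an intron. The highest was a pair of summits in the promoter of ftt-2, one of the worm's 14-3-3 genes, whose products bind phosphorylated proteins. The summit at chrX:11605940 had a pooled signal of 1538, replicate signals of 1053 and 475 and ranks of 12 and 15 in replicates 1 and 2, and the summit 204 bp farther upstream had 923 and ranks of 46 and 104. T13C5.6, which encodes a phosphatidic acid phosphatase domain protein, followed with 1163 at 186 bp upstream (ranks 22 and 28). The promoter of spc-1, the alpha spectrin gene, had 774 at 779 bp upstream, and that of ain-1, an Argonaute-interacting protein of the microRNA pathway, had 738 at 866 bp. sto-4 (stomatin) had 724 at 167 bp, unc-115, an actin-binding protein of axon guidance, had 696 at 196 bp, and spat-3, a RING2-like ubiquitin ligase, had 677 at 568 bp. F09C8.2, which encodes a protein with a C3H1-type zinc finger domain, had 679 at 923 bp (ranks 102 and 206). Smaller values in this group were 621 for the sphingomyelin synthase gene sms-2, 612 for serp-1.1 of the endoplasmic reticulum and 607 for the protein kinase gene kin-29. All 20 of the strongest members were found in both replicates, with ranks from 12 to 253. Both replicates contributed to the pooled signal that ranked these members, so this is not an independent check.

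Other members among the strongest 20 lay far from any coding start. The summit 6259 bp upstream of F13D11.3 had a signal of 853, that 4755 bp downstream of the start of Y15E3A.5 had 777, and that 5487 bp upstream of tps-1, a trehalose phosphate synthase gene, had 733. C30E1.4, a SID1 family gene, had a summit with 678 at 6001 bp, and dct-1, a NIP3 homolog of mitophagy, one with 626 at 2603 bp upstream. Both W02H3.3 (678, 3977 bp from the start) and F20B6.9 (635, 1803 bp upstream) belong to the MEX-bearing peaks shown above.

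Of 2731 protein-coding genes on X, 202 (7.40%, interval 6.44 to 8.44%) had a member summit in a promoter window, against 843 of 17242 autosomal genes (4.89%, interval 4.57 to 5.22%). The chromosomes varied, with 7.89% on I, 6.89% on III, 4.52% on II, 4.27% on IV and 2.76% on V, so the X share was below that of I. Counting gene bodies and nearest starts as well, 339 X genes had a summit. By summits in a gene's promoter or introns, 204 genes had 1, 26 had 2, 6 had 3 and mls-2 had 4. These counts took overlapping neighbours 199 to 212 bp apart as separate summits, as at ftt-2, sto-4, twf-2, igcm-4 and mls-2. The genes with 3 were igcm-3 and igcm-4, of the immunoglobulin superfamily, the LIM-domain-binding cofactor gene ldb-1, the zinc finger gene syd-9, the twinfilin gene twf-2, and F09A5.3, in whose intron summits lay 313 bp from mir-54 and 378 bp from mir-56.

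Gene lists were read against that share of 7.40%. Nuclear hormone receptors had promoter summits at 4 of 23 genes (17.4%, interval 4.95 to 38.8%): nhr-48 with a signal of 452, nhr-1 with 440, nhr-32 with 338 and nhr-40 with 285, each found in both replicates, and nhr-17 (408) and nhr-91 (341) had summits farther upstream. Of 16 homeobox genes 2 had one (12.5%, 1.55 to 38.3%), mls-2 and ceh-39, and ceh-14 and the Pax6 gene vab-3 had a summit elsewhere. Of 18 other transcription factor genes 1 had one, the timing regulator lin-14 (253), and sma-9 (426, 2908 bp upstream) and fkh-9 (234, in an intron) had a summit elsewhere. Each of these intervals includes 7.40%.

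Of 6 genes that count X chromosomes or set sex, 1 had a promoter summit (16.7%, interval 0.421 to 64.1%, which includes 7.40%). A summit of any kind was at 4 of the 6, where 12.4% of all X genes had one. The promoter summit was that of ceh-39, a signal element of X dose, with a signal of 227 at 39 bp upstream. It ranked 2423 in replicate 1 and was not found in replicate 2's list. The master switch xol-1 had the MEX-bearing summit with 271 at 4875 bp upstream, ranked 1562 and 982 in the replicates. The X signal elements sex-1 and fox-1 had intron summits of 237 and 233, both outside the strongest 1925 regions of replicate 2. Of these 4 summits, that of xol-1 was found in both replicates and the others were not.

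For neurons and muscle the counts were small. Of 21 genes of synapse and excitability 2 had a promoter summit (9.52%, interval 1.17 to 30.4%): syd-2, the liprin-alpha gene of the presynaptic active zone, with 575 and ranks of 167 and 283, and unc-2, a voltage-gated calcium channel gene, with 218, outside the strongest regions of replicate 2. Of 18 adhesion and guidance genes 2 had one (11.1%, 1.38 to 34.7%), unc-115 and the syndecan gene sdn-1 (259) and 6 had a summit of any kind, where 12.4% of all X genes had one. The Robo receptor gene sax-3 had 3 distal upstream summits of 341, 279 and 275, and its ligand gene slt-1 had one of 244. Of 13 muscle genes 1 had one, act-4 (238). No promoter summit was found at 34 neuropeptide genes (upper end of the exact interval 10.3%), 28 chemoreceptor genes (12.3%), 27 collagen genes (12.8%) or 2 ribosomal protein genes (84.2%), and no summit of another kind either. The upper bounds of these 4 lists lie above the X share, so a list of this size without a summit was not shown to differ from it.

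The motif panel held 14 short motifs. Besides those described below, they were TAATTA, a homeodomain core; the E-boxes CAGCTG (E-box 1 in the plot), with CACCTG as the next form and CACGTG as the last; the AP-1 site TGACTCA; and CCAAT, bound by NF-Y. All were searched in either orientation up to 50 bp from each summit and, for comparison, in windows of the same length centred 350 bp to one side. At the X summits 4 of 14 (28.6%) were more frequent than in the flanks and 1 (7.14%) was less frequent (exact McNemar test, two-sided, Benjamini-Hochberg adjusted over the panel). GAGAGA was at 98 members (24.4%) and 25 flanks (6.23%), 3.92 times as often (exact McNemar, adjusted p = 8.91e-12), and in 4.91% of windows along X. The octamer GAGACGCA was at 26 members (6.48%) and 0 flanks (exact McNemar, adjusted p = 2.09e-07), where a count of 0 in 401 allows a share of up to 0.748% by the limit of 3 counts, and it was in 0.281% of X windows. GGGCGG, the GC box bound by zinc finger proteins of the Sp1 family, was at 22 members (5.49%) and 3 flanks (exact McNemar, adjusted p = 0.000548). GCGCAGGG was at 9 members (2.24%) and 0 flanks (exact McNemar, adjusted p = 0.011) and in 0.0388% of X windows. This last call was lost, with adjusted p between 0.050 and 0.088 (exact McNemar), without replicate 2, with the flank on the other side, within 25 bp of the summit and among summits of 45 to 55% G and C, and within 25 bp the GGGCGG call was lost too. TGATAA, the GATA factor site of intestinal genes, was at 7 members (1.75%) and 42 flanks (10.5%; exact McNemar, adjusted p = 8.27e-07), a call that was lost within 25 bp (adjusted p = 0.27, exact McNemar). The X summits were richer in G and C than their flanks, with medians of 51.5% and 32.7%, which moved with these counts; the part of base composition in them was not tested.

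None of the 3 sites expected of an HMX homeodomain passed the test against the flanks within 50 bp of the summit. CAATTAA was at 7 members (1.75%) and 10 flanks (2.49%; exact McNemar, adjusted p = 0.80), and in 2.95% of X windows. Its core CAATTA was at 26 members and 35 flanks (exact McNemar, adjusted p = 0.51), and CAAGTG at 15 members and 11 flanks (exact McNemar, adjusted p = 0.76). This depended on the window: within 100 bp of the summit CAAGTG was more frequent than in the flanks, at 10.7% against 4.99% (exact McNemar, adjusted p = 0.00747), and CAATTA less frequent, at 10.5% against 18.7% (exact McNemar, adjusted p = 0.00417). CAATTA was also less frequent within 50 bp without replicate 2, with a log2 ratio of -0.89 (exact McNemar, adjusted p = 0.042). These counts moved with base composition, whose median G and C was 51.5% at X summits and 32.7% in flanks. CAATTA was at 12 of 78 members under 45% G and C (15.4%), 13 of 215 at 45 to 55% (6.05%) and 1 of 108 at 55% and over (0.926%). For CAATTAA the counts were 4 (5.13%), 2 (0.930%) and 1 (0.926%). The part of base composition in the flank comparison was not tested. Of the 7 members with CAATTAA, 3 were found in both replicates. The strongest X summit, at ftt-2, held none of the 14 motifs within 50 bp, and the strongest in an mls-2 intron held CAATTA and TAATTA.

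**Figure D4:**
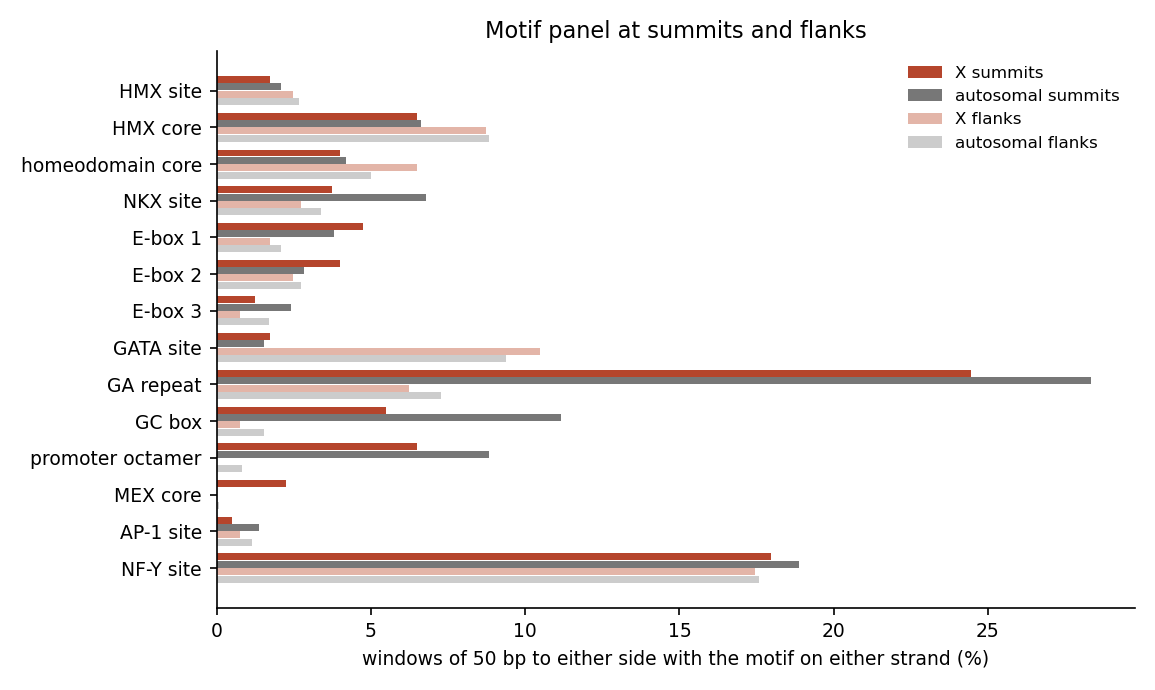
Percent of windows, 50 bp to either side of the centre, holding each motif on either strand, at X summits, autosomal summits and the flanks of both. HMX site, HMX core and NKX site are the homeodomain letters given in the text, GA repeat is GAGAGA, and MEX core is GCGCAGGG; GA repeat reaches 24.4% at X summits and 6.23% in X flanks.

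Set against the autosomal summits, 1 of the 14 motifs (7.14%) was more frequent on X and 1 (7.14%) less frequent. GCGCAGGG, at 9 of 401 members, was at 0 of 1235 autosomal summits (Fisher's exact test, two-sided, adjusted p = 4.18e-05), and 8 of the 9 members were found in both replicates. It stayed past the threshold in each of the 9 alternatives tried, with adjusted p between 2.38e-05 and 0.00379 (Fisher's exact test). The core itself occurs 81 times on X, 4.57 per Mb, and 233 times on the autosomes, 2.82 per Mb. A member summit lay within 100 bp of 13 of the 81 X sites (16.0%) and an autosomal summit of the same list within 100 bp of 0 of the 233 autosomal sites; with all 30000 pooled regions, weak ones included, the shares were 33.3% and 17.6%. For GAGACGCA a member summit lay within 100 bp of 8.54% of 527 X sites, and an autosomal summit within 100 bp of 4.01% of 4842 autosomal sites. With all pooled regions these shares were 21.1% and 20.2%. Matches of at least 11 of 12 letters to MEX were at 5 members, 0 autosomal summits and 0 X flanks, and in 29 of 175435 X windows (0.0165%). Matches of at least 10 letters were not absent from the autosomes. They were at 11 members (2.74%), 9 autosomal summits (0.729%), 0 X flanks and 2 autosomal flanks, and in 0.140% of X windows. Neither cut was tested. These counts of genomic sites and of MEX letters were added after the data had been seen.

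The signals of the 9 members with GCGCAGGG ran from 678 to 242. Of the 9, 7 were above the median signal of the 1636 peaks, as were 204 of all 401 members. W02H3.3 had 678, F20B6.9 635, the intron of mom-1, the worm Porcupine gene, 558, gtr-1 469, the promoter of the JNK kinase gene jkk-1 340, nspc-17 331, WBGene00020828 321, the xol-1 side 271 and C46H3.2 242. In replicates 1 and 2 the signals of the first were 438 and 254 and its ranks 135 and 120, those of F20B6.9 163 and 152 and those of C46H3.2 2036 and 1289, the one member of the 9 outside the strongest regions of a replicate. Of the 9, 5 were intergenic, 2 in introns and 2 in promoters.

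GGGCGG was less frequent on X, at 5.49% of members and 11.2% of autosomal summits (Fisher's exact test, two-sided, adjusted p = 0.0046), and it is also rarer along X, in 1.22% of X windows and 1.69% of autosomal ones. The call was lost without replicate 1 (6.68% against 8.81%, adjusted p = 0.67, Fisher's exact test) and, by a small margin, among summits of 45 to 55% G and C (5.12% against 11.2%, adjusted p = 0.052, Fisher's exact test). GAGAGA did not pass, at 24.4% against 28.3% (Fisher's exact test, adjusted p = 0.41), nor did GAGACGCA, at 6.48% against 8.83% (Fisher's exact test, adjusted p = 0.41). By class, GAGAGA was at 29.6% of promoter members, 21.8% of intergenic ones and 13.1% of intron ones, where the autosomal shares were 23.6%, 38.6% and 28.0%; this split was made after the data had been seen and has no test. GAGAGA was spread around the X summits, at 21.7% and 20.2% of windows centred 100 bp to either side and 5.49% and 4.24% at 500 bp. Repeat-masked bases, those in lower case in the RefSeq sequence, made up at least 50% of the window at 17 members (4.24%) and 142 autosomal summits (11.5%), and 30.6% of X against 36.8% of the autosomes.

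Agreement between the replicates was much the same on X and on the autosomes. A member was called found in a replicate when a summit among that replicate's strongest 1925 regions lay within 100 bp. The optimal list was itself derived from these replicates by rank agreement, so the shares below describe the list and are no independent check. Of all 1636 peaks, 60.1% were found in both, and of the 401 members 244 were (60.8%, interval 55.9 to 65.7%), against 739 autosomal peaks (59.8%; Fisher's exact test, two-sided, adjusted p = 0.93). Replicate 1 held 346 members (86.3%) and replicate 2 held 287 (71.6%); 102 were in replicate 1 alone, 43 in replicate 2 alone and 12 (2.99%) in neither. In the full lists of 30000 regions, 373 members (93.0%) had a summit within 100 bp in both, and over these peaks the replicate signals had a Spearman correlation of 0.59 and a Pearson correlation of log2 values of 0.69, against 0.58 and 0.71 for the 1156 autosomal peaks; these run across peaks, which are not independent replicates.

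Fewer of the weaker peaks were found in both replicates, and these lie nearer to the limit of 1925 regions that the definition of found uses. When the 1636 peaks were divided by pooled signal into 4 groups of equal size, 106 of 113 members in the highest group were in both replicates (93.8%), then 89.0%, 53.9% and, in the lowest group, 2 of 95 (2.11%), with autosomal values of 97.6%, 80.2%, 54.4% and 8.92%. With the full lists of 30000 regions in place of that limit, the shares of members with a summit in both were 94.7%, 98.9%, 96.1% and 82.1% from the highest to the lowest group. By class the share among the strongest 1925 regions of each was 64.5% in promoters, 61.7% between genes and 49.2% in introns. The members whose ranks differed most were intergenic summits upstream of nck-1 (rank 1058 in replicate 1 and 18555 in replicate 2), of tmem-184 (1008 and 15615) and of sax-3 (679 and 10377), so at each of these replicate 1 was the higher. The signals in the replicates' own lists were 189 and 32.5 for nck-1, 193 and 35.4 for tmem-184 and 228 and 42.4 for sax-3.

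**Figure D5:**
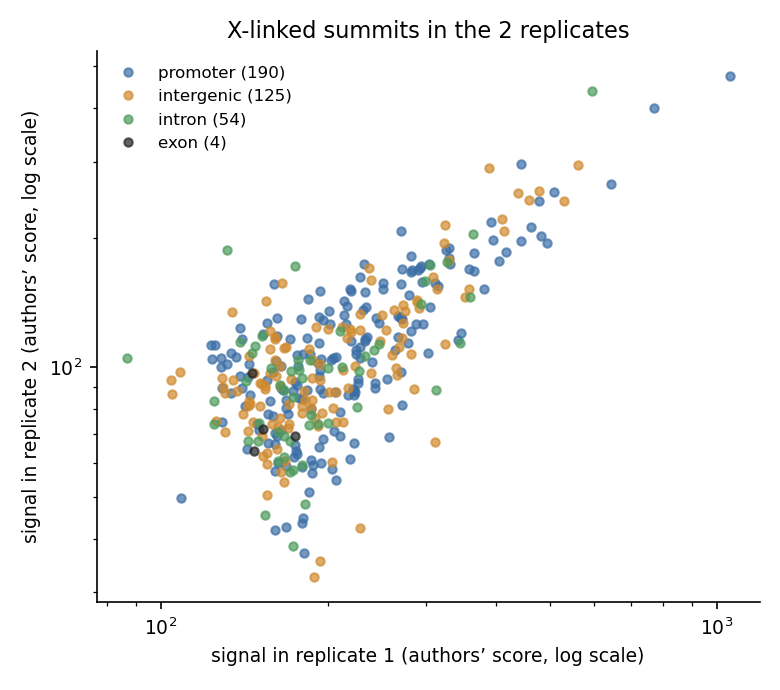
Signal of each of the 373 X members with a summit in both full replicate lists, replicate 1 on the horizontal and replicate 2 on the vertical log axis, coloured by class. The Spearman correlation is 0.59, and single points with a high value in replicate 1 and a low one in replicate 2 include nck-1, tmem-184 and sax-3.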

How the data were processed

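Chromatin immunoprecipitation with sequencing was done on 2 biological replicates of 1 group. The authors deposited peak lists for ce10 and ce11: 30000 regions for each replicate and for the pooled data, and an optimal list of 1925 peaks in ce11, derived with a control alignment, per the deposited file descriptions. The sources used here give no caller, aligner, IDR threshold or version. The deposited signal value of a peak has no stated scaling. The deposited −log10 q was at its maximum in 361 of the 401 members and was not used for ranking. The summit is the start plus the deposited summit offset. No depth is known, so no precision could be derived from it.

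Summits were annotated with Ensembl release 115 of WBcel235, and sequences were read from the RefSeq copy. Tests were Fisher's exact test and the exact McNemar test, two-sided, with Benjamini-Hochberg adjustment (SciPy 1.17.1, pandas 2.3.3, NumPy 2.4.6, Python 3.11.15), at an adjusted p under 0.05; the scripts were tested on simulated data. Peaks are the units, so p-values do not extend to further animals. The members, the 11 gene lists, the motif panel and the tests were chosen with earlier results of these data known. Genes named were those nearest to the 20 strongest members, in the 5 runs of most summits, with promoter summits in the lists, with the most summits, mls-2, and at the 3 members of lowest replicate agreement; other genes, such as those at motif-bearing, B box and both-direction summits, were named with their values known. Alternatives were signal, distance, promoter and motif windows and leaving out each replicate, which replaces the pooled list by the strongest 1925 regions of the other replicate. The ce10 lists served for the X share of all optimal peaks alone.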

Additional observations from a re-analysis of the deposited data

How the results depend on the processing

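The both-direction promoter and noncoding RNA comparisons, as shares of peaks, kept their direction and side of the threshold under every alternative run. Relative to the bases available, the noncoding RNA ratio was lower on X than on the autosomes, at 4.63 and 5.59. Of gene pairs pointing away from each other, 12.8% on X and 11.1% on the autosomes had a summit between their starts. The intergenic difference, 6.53 percentage points with all members, was 7.11 above the median signal (adjusted p = 0.16), 6.23 over 500 bp from small RNA genes (0.054) and 5.90 with one summit per run within 250 bp (0.083, added after the data were seen), all by Fisher's exact test; leaving out a replicate gave 5.05 to 9.35. The intron difference ran from -5.66 to -2.68 points when a replicate was left out, and -5.66, without replicate 1, passed the threshold (adjusted p = 0.028, Fisher's exact test). The share of X genes with a promoter summit was 3.77% above the median signal, 5.86% with a 500 bp window, 10.0% with a 2000 bp window and 6.41 to 7.36% with a replicate left out. The number of motifs that differed from the flanks, 5, was 2 within 25 bp and 9 within 100 bp of the summit; the number that differed from the autosomes, 2, was 1 among summits of 45 to 55% G and C and 1 to 3 with a replicate left out. The cause was not tested. Over all results, 302 of the alternative values kept direction and side of the threshold, 8 moved, 12 weakened, 11 strengthened and 28 changed sign, and none of these 28 passed the threshold in either setting. In points of X minus autosomes, clustering went from 0.26 to -1.04 without replicate 2 (3.31 without replicate 1), -0.69 over 500 bp from small RNA genes, -0.40 with summits within 250 bp and -0.53 without summits within 20 kb of mls-2, where the promoter difference went from -0.55 to 0.095. Replicate agreement went from 1.01 to -5.43 with replicate summits within 50 bp and -0.59 with all regions of each list. The other 21 concern motifs, in points against the autosomes or as log2 ratios against the flanks. Above the median signal the points were 0.74 for CAATTA and -0.17 for TGATAA, and the ratio for CACGTG was -0.74. With a replicate left out the points ran from -0.77 to 1.52 for CAGCTG, -0.37 to 0.43 for TGATAA, -0.71 to 0.082 for TGACTCA and 0.39 to 2.47 for CCAAT, whose ratio ran from -0.17 to 0.12. Within 25 bp the points for TAATTA were 0.14 and the ratios for CAAGTG -0.24 and CCAAT -0.12; within 100 bp the points for CACGTG were 0.029 and for TGATAA -1.04. With one summit per run the points were 0.044 for CAATTAA and -0.22 for TGATAA, and at 45 to 55% G and C they were 0.37 for TAATTA, -0.66 for TGATAA and 1.88 for GAGAGA. With the other flank the ratios were -0.45 for CACGTG and -0.13 for CCAAT. The X share of all optimal peaks was 25.2% in ce10 as in ce11. No paired analysis was possible because there is 1 group. Depth is unknown, and small lists and rare motifs limit what the counts can show.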

Other observations

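Among all words of 6 letters present at 10% or more of the X summits, those with the highest ratio to the autosomal summits were rich in C on one strand, and they were chosen after their values were seen and carry no test. CCCCTC or its reverse complement was within 50 bp of 15.7% of X summits, 2.49% of their flanks and 7.53% of autosomal summits. The corresponding values for CCCCCC were 13.5%, 0.499% and 6.56%, and for CCACAC 10.2%, 2.99% and 5.99%. The X summits were also richer in G and C than the autosomal ones, with medians of 51.5% and 49.5%, and the part of this in the word counts was not tested.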
